A study of Mus musculus with 6 samples.

Results

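The AMPA receptor subunit genes Gria1, Gria2, Gria3 and Gria4 and the kainate receptor subunit genes Grik1, Grik2, Grik3, Grik4 and Grik5 were followed in the embryonic mouse brain. They were chosen by gene symbol from the table of read counts, where each of the 9 symbols stood for 1 of 53801 genes. Polyadenylated transcripts of whole brains were measured by RNA-seq at stage E16.5, in embryos of strain C57BL/6. The 3 Bahd1-KO embryos were homozygous for a null allele of Bahd1, carried from conception in all tissues and bred from heterozygous parents, and the 3 Bahd1-WT embryos were wild type. No embryo received a treatment. The methods call the mice male and do not say whether this covers the embryos. BAHD1 assembles protein complexes that silence chromatin, and the comparison asks whether transcript levels in the brain differ when it is missing.

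AMPA and kainate receptors are cation channels that open when glutamate binds. Each channel is a tetramer, built from the subunits of its own family. AMPA receptors carry most of the fast excitatory transmission between neurons. Kainate receptors act at both sides of the synapse and modulate release and excitability. The kainate subunits GluK1, GluK2 and GluK3, encoded by Grik1, Grik2 and Grik3, can form channels alone, whereas GluK4 and GluK5, encoded by Grik4 and Grik5, bind agonist with higher affinity and need one of the former for a working channel. In the brain, transcripts of these genes lie mainly in neurons, and some are also found in glia.

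One codon in the pore loop, the Q/R site, sets the calcium permeability of these channels. In Gria2, and to a lesser degree in Grik1 and Grik2, the enzyme ADARB1 edits the adenosine of this glutamine codon in the RNA, so that an arginine is made. The site is printed for all 9 genes because it lies at the matching position of each subunit and holds the base that is edited in Gria2, Grik1 and Grik2. Each sequence is the coding strand of the GENCODE M21 transcript on GRCm38, with the codon in capitals and 12 bases on each side.
Gria1: ggggccttcatgCAGcaaggatgtgac
Gria2: ggtgcctttatgCAGcaaggatgcgat
Gria3: ggtgcttttatgCAGcaaggatgtgat
Gria4: ggtgcctttatgCAAcaaggatgtgac
Grik1: ggagctctcatgCAGcaaggatcggag
Grik2: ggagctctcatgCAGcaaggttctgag
Grik3: ggctccctgatgCAGcaaggatctgaa
Grik4: ggaggcttcatgCAGcaaggctccact
Grik5: ggtggcttcatgCAGcagggctcggag

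The codon was CAG in 8 of the 9 genes and CAA in Gria4. The Gria2 codon lies in exon 11 of 16 at chr3:80706911-80706913 on the minus strand, and the Grik2 codon in exon 13 of 17 at chr10:49244329-49244331 on the minus strand. Over the 27 bases printed, Gria1, Gria3 and Gria4 differed from Gria2 at 4, 2 and 3 bases. Grik1 differed from Grik2 at 2 bases, while Grik3, Grik4 and Grik5 differed at 6, 8 and 7. Over the whole coding sequence, identity was 68.7% to 72.6% between AMPA subunits, 55.8% to 72.1% between kainate subunits and 54.0% to 58.6% between the families. The longest stretch that any pair had in common was 51 bases. Read counts per gene do not show which share of the transcripts was edited.

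Total counts ranged from 61724000 to 91782802 per embryo. For Bahd1 itself, 2, 10 and 6 reads were counted in Bahd1-KO replicates 1, 2 and 3, against 1971, 3102 and 3470 in Bahd1-WT, as the labels require. Bahd1-KO replicate 3 stood apart. In that library 44.7% of the counts fell on Gm42418, mt-Rnr1 and mt-Rnr2, which hold ribosomal RNA, against 0.249% to 0.614% in the other 5. It was also low in neuron markers and high in markers of lung, skeletal muscle, meninges and connective tissue. These are detailed with its values for the subunit genes. Fitted differences of the subunit genes between genotypes are therefore given with and without this library. A low level in bulk tissue may come from fewer cells of a type or from less RNA per cell, and these cannot be told apart here.

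All 9 genes were expressed in every embryo, with 271 to 74505 counts. To compare genes, levels were expressed per length, as counts per 1000000 counts of the embryo (CPM) per kilobase of merged exons. In the Bahd1-WT embryos Gria2 was highest at 41.6 ± 11.0 CPM per kb (SD, n = 3), followed by Gria1 at 38.6 ± 5.39. Grik3 at 23.0 ± 4.64, Grik5 at 21.8 ± 7.79 and Gria4 at 21.4 ± 5.06 came next. Grik2 reached 13.6 ± 3.34 CPM per kb. The lower end held Gria3 at 6.89 ± 1.44, Grik1 at 6.48 ± 1.19 and Grik4 at 2.53 ± 0.251 CPM per kb. Among the 31036 genes with a count and a length, these levels placed Gria2 in the top 2.97% and Grik4 in the top 32.9%.

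Of the 8 pairs of neighbours in that order, 3 were ordered alike in all 6 embryos. Gria1 exceeded Grik3, Gria4 exceeded Grik2, and Grik1 exceeded Grik4. Without Bahd1-KO replicate 3, Grik2 also exceeded Gria3 in all 5 embryos. The other neighbours did not differ beyond their spread. Gria2 exceeded Gria1 in 3 of the 6 embryos, and Grik5 exceeded Gria4 in 2. The ranks of Grik3, Grik5 and Gria4 also changed when the longest transcript served as the length.

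**Figure D1:**
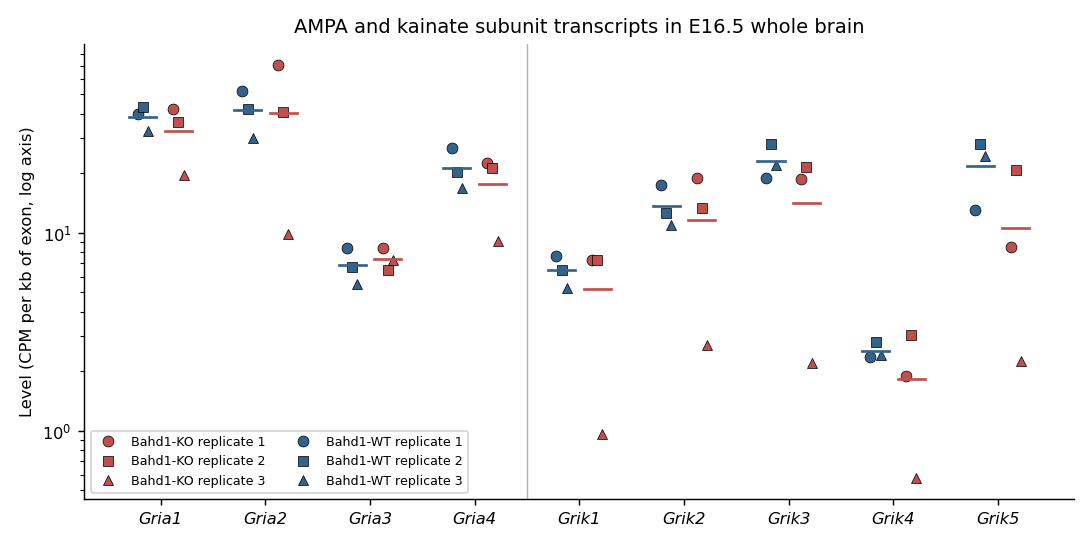
Level of each AMPA and kainate subunit transcript in CPM per kilobase of merged exons (log axis) in the 3 Bahd1-WT (blue) and 3 Bahd1-KO (red) embryos. Points are embryos, marker shapes are replicate numbers and bars are group means; Bahd1-KO replicate 3 lies below the other embryos for every gene except Gria3.

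Within the AMPA family, Gria1 and Gria2 together made up most of the transcripts. Gria2 held 38.0% ± 2.87 of the summed AMPA level per length in the Bahd1-WT embryos (SD, n = 3) and Gria1 held 36.0% ± 4.13. Gria4 held 19.7% ± 1.52 and Gria3 6.35% ± 0.325. A share does not depend on how a library is scaled, but it depends on the length used. With the longest transcript the Gria2 share was 43.4% and the Gria1 share 30.0%, and with no length correction they were 59.3% and 21.9%.

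Within the kainate family, Grik3 held 33.9% ± 2.07 and Grik5 31.8% ± 8.53 of the summed level in the Bahd1-WT embryos. Grik2 held 20.7% ± 7.38, Grik1 9.79% ± 2.71 and Grik4 3.77% ± 0.184. With the longest transcript the shares of Grik3 and Grik5 were 27.1% and 32.4%. With no length correction Grik3 held 36.8%, Grik2 32.6% and Grik5 20.1%. The Grik5 share varied most between embryos, from 15.4% in Bahd1-KO replicate 1 to 37.5% in Bahd1-WT replicate 3. The Grik2 share ran the other way, from 16.1% in Bahd1-WT replicate 2 to 34.1% in Bahd1-KO replicate 1. For none of the 9 genes did the shares of the 2 genotypes separate, with or without Bahd1-KO replicate 3.

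**Figure D2:**
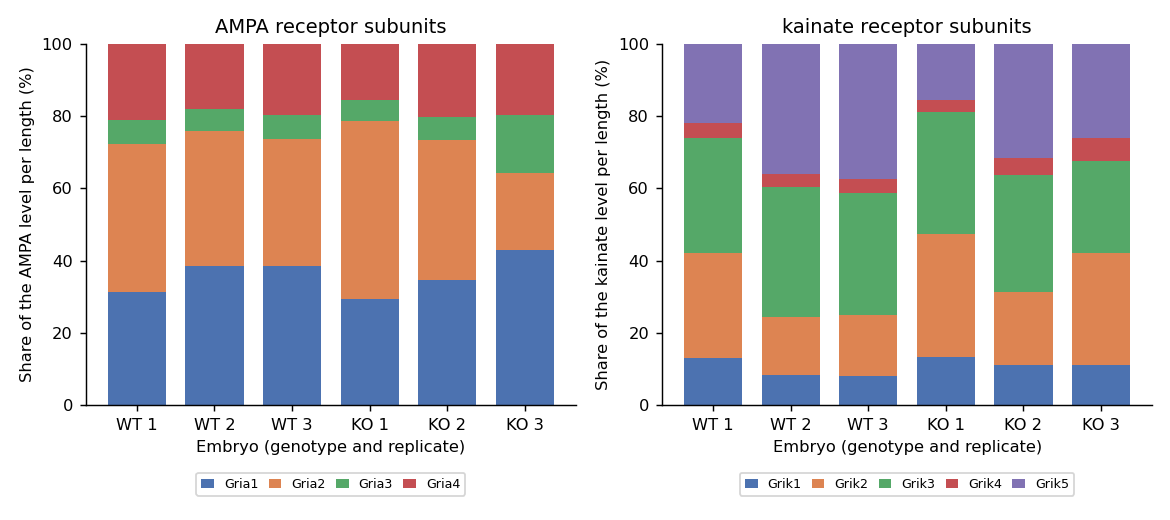
Share of each subunit in the summed level per length of its family (percent, y axis) in each embryo, AMPA genes on the left and kainate genes on the right. In Bahd1-KO replicate 3 Gria2 held 21.5% and Gria3 15.9% of the AMPA level, against 35.4% to 49.1% and 5.84% to 6.60% in the other 5 embryos.

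The summed AMPA level was 98.3 ± 49.3 CPM per kb in the Bahd1-KO embryos, compared with 108 ± 21.3 in Bahd1-WT (SD, n = 3 each). The log2 ratio of the means was -0.14, and 0.20 without Bahd1-KO replicate 3. The summed kainate level was 43.4 ± 30.5 CPM per kb in the Bahd1-KO embryos, compared with 67.5 ± 9.48 in Bahd1-WT, a log2 ratio of -0.64, and -0.15 without that library. Bahd1-KO replicates 1 and 2 lay at 55.3 and 66.0 CPM per kb, and replicate 3 at 8.73. The Bahd1-WT embryos lay between 59.4 and 77.9, so that the groups overlapped for the kainate sum. With TMM factors the log2 ratio was -0.03 for the AMPA sum and -0.59 for the kainate sum.

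No AMPA or kainate subunit gene passed the test between genotypes. Of the 24739 genes tested, edgeR called 1 (0.00404%) at an adjusted p under 0.05, and this was Bahd1, with a log2 fold change of -8.40 (SE 0.606, adjusted p = 0.0462). It called 0 of the 9 members, 0 had an unadjusted p under 0.05 (against 4.67% of all genes), and DESeq2 called 0 as well. On the TMM-scaled levels the groups did not overlap for 0 of 9 members, against 6.71% of all genes. The log2 fold change was negative for 7 of the 9 and for 46.2% of all genes, with a median of -0.17 over the members and 0.06 over all genes.

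Without Bahd1-KO replicate 3, 4 of 23334 genes were called (0.0171%) and again 0 members. None had an unadjusted p under 0.05 (1.48% of all genes). On the TMM-scaled levels the groups did not overlap for 0 of the 9, against 10.7% of all genes. The fold change was negative for 3 of the 9 and for 50.8% of all genes, and the median was 0.01 over the members and -0.01 over all genes. The wide intervals set what these embryos could show. With 6 embryos the 95% interval of Gria1 ran from -0.67 to 0.50, and that of Grik5 from -2.44 to 0.44.

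**Figure D3:**
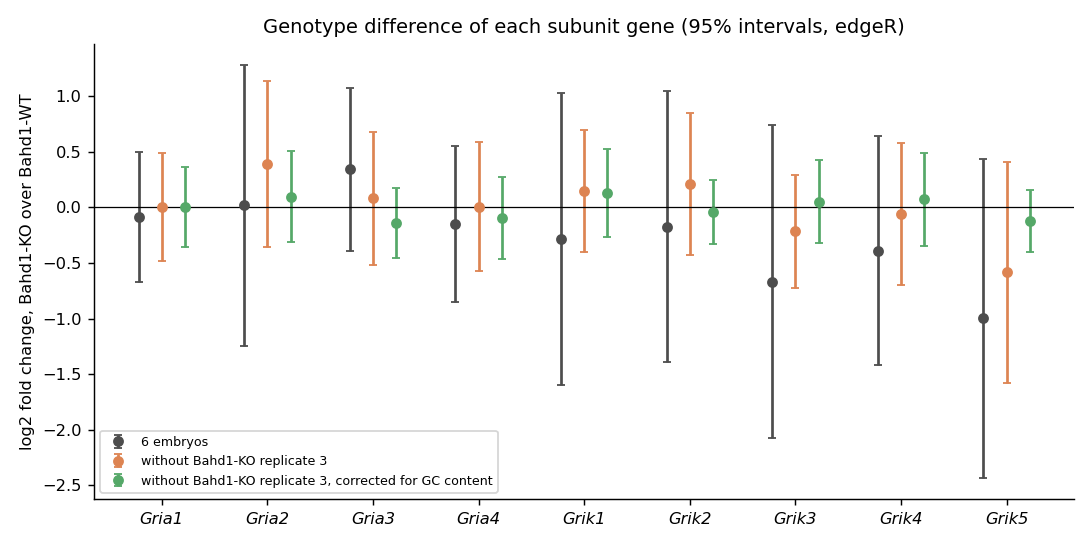
log2 fold change of each subunit gene, Bahd1-KO over Bahd1-WT, with 95% intervals from edgeR, for 6 embryos (grey), without Bahd1-KO replicate 3 (orange), and without it after a correction for GC content (green). Every interval includes 0, and the intervals are narrowest in the last fit.

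Gria1, which encodes GluA1, had 256, 219.8 and 119 CPM in Bahd1-KO replicates 1, 2 and 3, and 240.3, 262 and 198 CPM in Bahd1-WT replicates 1, 2 and 3. Only Bahd1-KO replicate 3 lay outside the range of the Bahd1-WT embryos. The fit gave Gria1 a log2 fold change of -0.08 (SE 0.249, adjusted p = 0.910), and 0.0032 without that embryo. Gria2 encodes GluA2, the subunit that makes AMPA receptors impermeable to calcium once edited. Bahd1-KO replicates 1, 2 and 3 had 1099.7, 633 and 154 CPM, against 812, 659 and 469 CPM in Bahd1-WT. The Bahd1-KO embryos held both the highest and the lowest value. The fit gave 0.02 on the log2 scale for Gria2 (SE 0.538, adjusted p = 0.993), and 0.39 (SE 0.321, adjusted p = 0.981) without Bahd1-KO replicate 3.

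Gria3 encodes GluA3, which joins GluA2 in many adult synapses. Its transcripts reached 82.9, 63.8 and 71.9 CPM in Bahd1-KO, against 82.8, 66.6 and 54.4 CPM in Bahd1-WT. On this scale the groups overlapped almost completely, and Bahd1-KO replicate 3 lay inside the range of the others. With the TMM scaling that the fit used, that embryo was highest, at 105 CPM against 49.2 to 79.3 in the other 5. On the log2 scale Gria3 differed by 0.34 (SE 0.311, adjusted p = 0.718), and 0.08 without that embryo. Gria4 encodes GluA4, the subunit best known from young synapses and interneurons. Its levels were 142, 134 and 57.4 CPM in Bahd1-KO, against 169, 129 and 106 CPM in Bahd1-WT. The fitted log2 fold change of Gria4 was -0.15 (SE 0.298, adjusted p = 0.865), and 0.01 without Bahd1-KO replicate 3.

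Among the kainate subunits that form channels alone, Grik1 had 49.2, 49.1 and 6.45 CPM in Bahd1-KO, against 51.5, 43.6 and 35.6 CPM in Bahd1-WT. The first 2 Bahd1-KO embryos lay inside the Bahd1-WT range and the third far below it. The log2 fold change of Grik1 was -0.28 (SE 0.559, adjusted p = 0.868), and 0.15 without the third. Grik2 had 250.1, 177 and 36.1 CPM in Bahd1-KO, against 230.1, 166 and 145 CPM in Bahd1-WT. The fit gave Grik2 a log2 fold change of -0.17 (SE 0.518, adjusted p = 0.911), and 0.21 without Bahd1-KO replicate 3. Again the Bahd1-KO embryos held the highest and the lowest value. Grik3 had 168, 193 and 19.8 CPM in Bahd1-KO, against 169.8, 252 and 198 CPM in Bahd1-WT. For Grik3 the fit gave -0.67 on the log2 scale (SE 0.599, adjusted p = 0.716), and -0.22 (SE 0.220, adjusted p = 0.981) without that embryo.

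Of the high-affinity subunits, Grik4 was the lowest of all 9 genes, with 11.3, 18.1 and 3.43 CPM in Bahd1-KO, against 14.1, 16.8 and 14.4 CPM in Bahd1-WT. The log2 fold change of Grik4 was -0.39 (SE 0.438, adjusted p = 0.765), and -0.06 without Bahd1-KO replicate 3. With all 6 embryos and no correction for GC content, Grik5 had the largest fitted difference of the 9. Bahd1-KO replicates 1, 2 and 3 had 44.0, 108 and 11.7 CPM, whereas the Bahd1-WT embryos had 67.5, 145 and 126 CPM. Bahd1-KO replicate 2 lay above Bahd1-WT replicate 1, so the groups overlapped. Its difference on the log2 scale was -1.0 (SE 0.611, unadjusted p = 0.145, adjusted p = 0.696), and -0.58 (SE 0.429, adjusted p = 0.981) without Bahd1-KO replicate 3. Without Bahd1-KO replicate 2 it was -1.87 (unadjusted p = 0.0098, adjusted p = 0.235). That fit left replicates 1 and 3 as the Bahd1-KO group. Of its 24149 genes, 2965 had an unadjusted p under 0.05 with a higher level in Bahd1-KO and 1913 with a lower one.

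Bahd1-KO replicate 3 held the lowest TMM-scaled level of 8 of the 9 genes, against 36.0% of all genes tested. The exception was Gria3, which was highest there on the TMM scale. Of the kainate genes, Grik3 stood at 16.0% of the mean of the other 5 embryos, Grik5 at 18.9%, Grik1 at 22.2%, Grik2 at 29.3% and Grik4 at 36.4%. Among the AMPA genes Gria2 was at 32.9% of that mean, Gria4 at 66.4%, Gria1 at 79.8% and Gria3 at 161%. The ratio of the summed AMPA to the summed kainate level was 5.27 in this embryo and 1.31 to 2.60 in the others.

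The neuron markers were low in the same library. Their summed TMM-scaled level was 2745 CPM, against 9694 and 10455 in the other Bahd1-KO embryos and 9244 to 11347 in Bahd1-WT. Of the 12 markers, 7 were lowest and 1 was highest in that library, against 36.0% and 38.1% of all genes tested. Tubb3, a neuronal tubulin, was at 2.49% of the mean of the other 5 embryos, which themselves ran from 364 to 1556 TMM-scaled CPM. Map2, a dendritic microtubule protein, was at 31.2% of that mean, while Mki67, a proliferation marker, was at 333%. The 10 markers of dividing progenitors were split, with 5 lowest and 5 highest there and a median log2 ratio of -0.03 to the other embryos. Of 11 glia markers, 6 were highest and 3 lowest there, with a median of 1.40. Of 7 microglia markers, 5 were highest and 0 lowest, with a median of 0.66. The 5 choroid plexus markers had a median of -1.96, with 3 lowest and 2 highest. All 5 lung, 7 muscle and 6 meninges and connective tissue markers were highest there, with summed levels of 1083, 84.5 and 2567 CPM. In the other Bahd1-KO embryos these sums were 0.198 to 11.1, 2.37 to 4.65 and 361 to 408 CPM, and in Bahd1-WT 0.282 to 0.465, 4.04 to 12.1 and 327 to 434 CPM. No marker of these lists was at 0 in every embryo. Scaled to the geometric mean of the 12 neuron markers, the kainate sum of this embryo was 59.1 CPM per kb, inside the 57.1 to 76.8 of the others, and the AMPA sum was 311 CPM per kb, above their 90.1 to 172. The geometric mean gives each marker equal weight, also Tubb3, and scaling to the summed marker level was not done. The part of this composition in the difference between genotypes was not tested.

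Reads in the introns of Grik2 also set this library apart. Inside Grik2, 6 short genes of the annotation lie on the same strand and share no exon bases with it. They had 20 to 83 counts in Bahd1-KO replicate 3 and at most 25 in any other embryo. Their counts do not enter those of Grik2.

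Among the other 5 embryos, the level of most subunit genes followed the replicate number. Both embryos numbered 1 lay above the 3 others for Gria2, Gria3, Gria4, Grik1 and Grik2, and below them for Grik3 and Grik5. The mean of these 2 embryos over the mean of the other 3 was 1.69 for Gria2, 1.54 for Grik2 and 1.40 for Gria3, but 0.461 for Grik5. This order followed the GC content of the transcripts, which was 36.8% for Gria2, 37.9% for Grik2 and 39.8% for Gria3, but 61.7% for Grik5. The expressed genes as a whole showed the same order, with a median log2 ratio of 0.57 for genes under 40% GC and -1.12 for genes over 60%. The share of all genes for which both embryos numbered 1 lay apart from the 3 others is not given. The separation is therefore not read as particular to the subunit genes.

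The spread over these 5 embryos was correspondingly uneven. The SD of the log2 level was 0.684 for Grik5, larger than for 93.7% of genes at 1 CPM or more, and 0.485 for Gria2. It was 0.193 for Gria1, below the median gene at 0.273. After each embryo was corrected for GC content, without Bahd1-KO replicate 3, the log2 fold changes of the 9 genes lay between -0.14 and 0.13. The value of Grik5 was then -0.12 (95% interval -0.40 to 0.16). With the same correction and all 6 embryos Grik5 was at -0.38 and Grik2 had the largest difference, at -0.43. The embryos numbered 1 include 1 of each genotype. With Bahd1-KO replicate 3 left out, the embryo numbered 1 weighs more in the Bahd1-KO mean than in the Bahd1-WT mean. The pattern by replicate number is then not balanced between the genotypes.

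**Figure D4:**
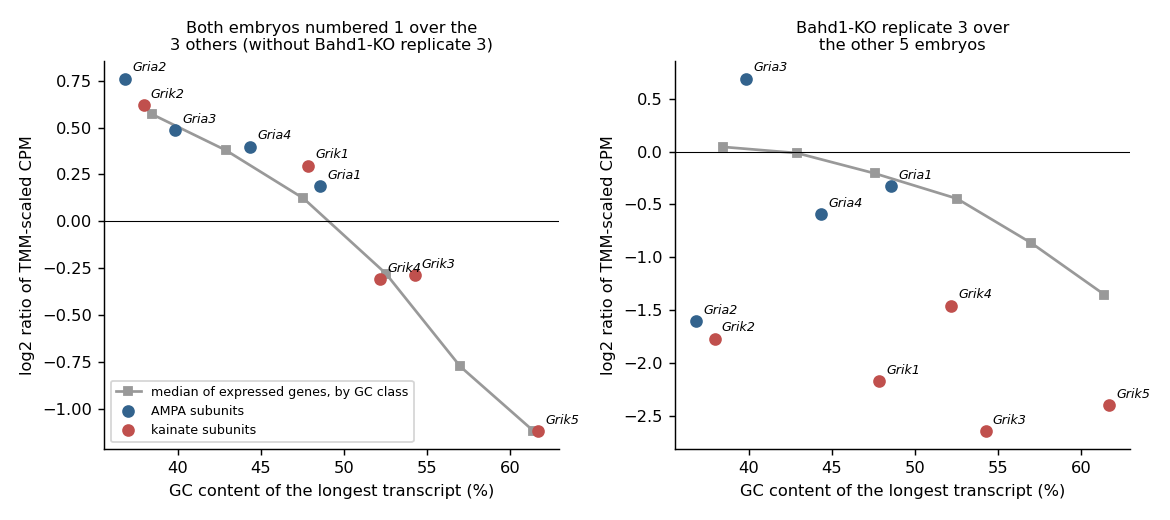
Left, log2 ratio of the mean of both embryos numbered 1 to the mean of the 3 others (without Bahd1-KO replicate 3), and right, log2 ratio of Bahd1-KO replicate 3 to the mean of the other 5, against GC content of the longest transcript (percent). Grey squares are medians of the 14355 expressed genes in 6 classes of GC content; on the left the subunit genes lie close to the grey line, and on the right the kainate genes, Gria2 and Gria4 lie below it.

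Receptors of both families work with auxiliary subunits, scaffolds and editing enzymes. Of 34 such genes, 32 had a single entry in the table and were tested, since Dlg2 and Pick1 each stood in 2 entries. edgeR called 0 of the 32, DESeq2 called 0, and 0 had an unadjusted p under 0.05, against 4.67% of all genes. The log2 fold change was negative for 27 of the 32 with a median of -0.30, where 46.2% of all genes were negative. Without Bahd1-KO replicate 3 it was negative for 22 of the 32 with a median of -0.14, and for 50.8% of all genes. In that library 24 of the 32 had their lowest level, as did 36.0% of all genes.

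Among the AMPA receptor auxiliary subunits, the most abundant per length was Cnih2, a cornichon protein that guides receptors out of the endoplasmic reticulum. It reached 114 ± 34.7 CPM per kb in Bahd1-WT (SD, n = 3). Cacng4 at 82.2 and Cacng7 at 65.5 CPM per kb, which encode transmembrane AMPA receptor regulatory proteins, followed. All 3 exceeded the mean level of Gria2. Without Bahd1-KO replicate 3 the log2 fold changes were -0.46 for Cnih2, -0.24 for Cacng4 and -0.42 for Cacng7, and that of Cpt1c, whose product binds receptors in the endoplasmic reticulum, was -0.42. With all 6 embryos they were -0.97, -0.78, -0.82 and -0.65. Leaving that library out, both embryos numbered 1 lay below the others for all of these genes. The part of this pattern by replicate number in the fold changes was not tested. The TMM-scaled level of Cnih2 was 65.6, 143 and 11.0 CPM in Bahd1-KO, against 96.8, 164 and 170.2 CPM in Bahd1-WT, so that the groups overlapped.

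The kainate receptor auxiliary subunits Neto1 and Neto2 stood at 5.85 and 41.1 CPM per kb in Bahd1-WT, and their log2 fold changes without Bahd1-KO replicate 3 were 0.08 and 0.26. Of the scaffold and trafficking genes, Nsf, the ATPase of membrane fusion, had 24.7 CPM per kb, Dlg3 24.3 and Dlg4, which encodes PSD-95, 23.4. Dlg4 had the largest fitted difference of its class without that library, at -0.56, followed by Grip2, a scaffold of GluA2 and GluA3, at -0.33. Leaving that library out, both embryos numbered 1 lay below the others for Dlg4 and Grip2, and above them for Neto1 and Neto2. Dlg3 was the single gene of the 32 whose groups did not overlap, with 125, 127 and 90.8 TMM-scaled CPM in the Bahd1-KO embryos, compared with 134, 135 and 128 in Bahd1-WT. With these 6 embryos the log2 fold change of Dlg3 was -0.21 (adjusted p = 0.763), and 6.71% of all genes had groups that did not overlap. Without Bahd1-KO replicate 3 the fold change of Dlg3 was -0.08.

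Of the editing enzymes, Adar had 15.3 CPM per kb in Bahd1-WT, Adarb1 4.40 and Adarb2 2.71. Adarb1 encodes the enzyme that edits the Q/R site of Gria2. It had 38.6, 44.8 and 111 TMM-scaled CPM in the Bahd1-KO embryos, compared with 47.4, 52.4 and 38.5 in Bahd1-WT, with the highest value in Bahd1-KO replicate 3. Its log2 fold change was 0.49 (adjusted p = 0.711), and -0.16 without that embryo. The delta receptor gene Grid1, which is related to both families, stood at 6.31 CPM per kb, with a log2 fold change of -0.10 without Bahd1-KO replicate 3.

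**Figure D5:**
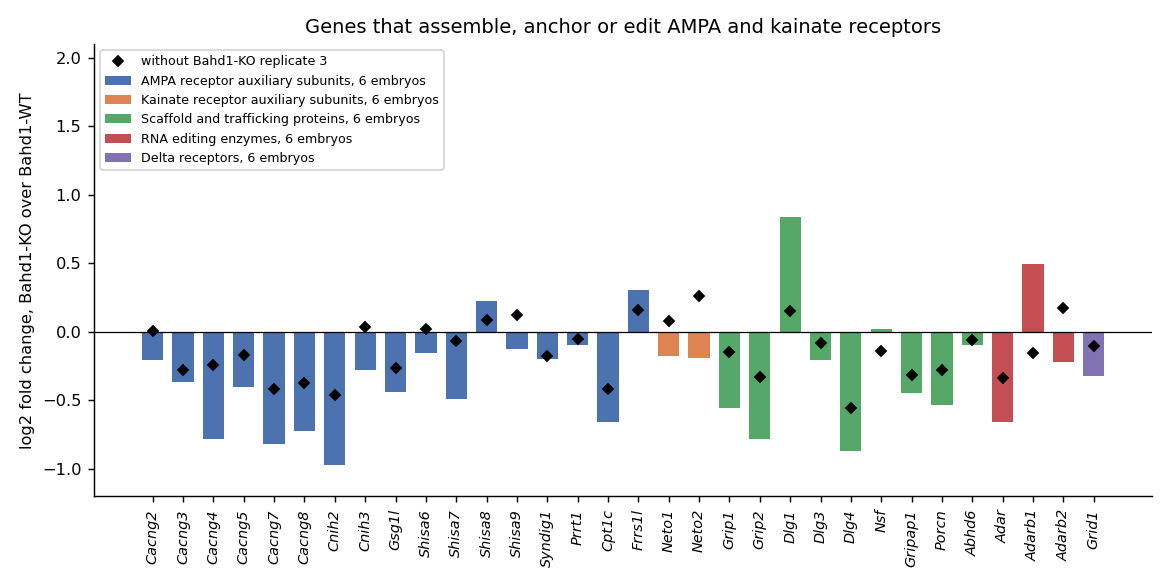
log2 fold change, Bahd1-KO over Bahd1-WT, of 32 genes that assemble, anchor or edit AMPA and kainate receptors, in 6 embryos (bars, coloured by class) and without Bahd1-KO replicate 3 (diamonds). No gene was called in either fit, and 27 of the 32 bars and 22 of the 32 diamonds lie below 0.

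The profile of each family over the 6 embryos was compared with that of all other genes at 1 CPM or more, by the root mean square difference of the log2 levels centred over the embryos. The nearest genes to the AMPA sum were Epha7 (0.044), Dopey1 (0.050) and Eml5 (0.066), and those to the kainate sum were Nol4l (0.046), Mark1 (0.049) and Jph4 (0.057). Bahd1-KO replicate 3 was the farthest embryo from the mean of both sums, with a centred log2 level of -0.53 for AMPA and -1.85 for kainate, and without it other genes were nearest. Among the members themselves the nearest pairs crossed the families as well as staying within them. Gria2 and Grik2 lay 0.157 apart, and Gria1 and Gria4 0.188. The nearest member was Gria1 for Gria3, Grik2 for Grik1, Grik1 for Grik3 and Grik4, and Grik3 for Grik5. Gria3 and Grik5 were the farthest apart, at 1.35. These neighbours depended on Bahd1-KO replicate 3. Without it Gria4 and Grik1 were 0.086 apart, Gria3 and Grik2 0.088 and Grik3 and Grik4 0.187, the nearest member of Gria1 was Grik1, and Gria2 and Grik5 were the farthest apart at 1.01.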

How the data were processed

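Polyadenylated RNA of 6 whole brains was sequenced by the study. The authors deposited counts of reads over each gene, not normalized, with a column for each embryo, made with cutadapt 1.11, STAR 2.5.0a and featureCounts 1.4.6-p3 on GRCm38 according to the submitters' processing notes. The methods also name TopHat2, and which aligner made the table is not stated. Counting used strand.

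Genes with at least 10 counts in sum entered the edgeR quasi-likelihood test (4.0.16, R 4.3.3; TMM factors, genotype as the single term, two-sided), with Benjamini-Hochberg adjustment over all genes tested. DESeq2 (1.42.0) was an alternative. CPM used total counts unless named TMM-scaled. Lengths and GC content came from GENCODE M21, which matched 99.8% of genes.

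Same-numbered embryos deviated from their group means with correlations of 0.12, 0.18 and -0.09. The Bahd1-KO mean included replicate 3, which stood apart, so these correlations cannot decide whether same-numbered embryos form pairs. Replicate numbers were not treated as pairs in the main fit, and fits with the number as a block are given below. The members and lists were chosen with earlier results of these data known. Named genes were all members, Bahd1, 3 markers, the companion genes of each class with the highest level (3) and largest change without Bahd1-KO replicate 3 (2), and the 3 nearest genes of each family. One companion gene is not reported here. Intervals cover 95%. Alternatives covered normalization, filters, length, neuron scaling, GC content (lowess within each embryo) and left-out embryos.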

Additional observations from a re-analysis of the deposited data

How the results depend on the processing

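The count of subunit genes called was 0 of 9 and the count of companion genes called 0 of 32 in each of the 20 alternative fits. The lowest adjusted p of a member was 0.235. In the fits that called no gene at all, Bahd1 itself was not called (adjusted p = 0.0547 to 0.685). A count of 0 members in those fits therefore does not show that the members were unchanged. The count of all genes called was 1 with all embryos and 0 to 4 when 1 embryo was left out, with 4 without Bahd1-KO replicate 3 and 0 without any other. It was 8 with DESeq2, 6 with voom and embryo quality weights, 6 with the likelihood ratio test, 0 without the ribosomal and mitochondrial RNA genes, 11 with DESeq2 without Bahd1-KO replicate 3, and 6 with the correction for GC content without that library. With the replicate number as a block it was 0, and 16 with the block and without Bahd1-KO replicate 3. The numbers mark no stated litter or batch. In the block fits Grik5 was at -1.25 and -0.56 (adjusted p = 0.773 and 0.248). The second left Bahd1-WT replicate 3 alone in its block, with 574 genes higher and 1597 lower at an unadjusted p under 0.05. Its interval for Grik5 (-0.85 to -0.27, unadjusted p = 0.0014) therefore decides nothing. Voom gave Grik5 -1.08 (unadjusted p = 0.0144, adjusted p = 0.535), with 739 and 1474 such genes. The GC-corrected fit without Bahd1-KO replicate 3 gave Grik5 an unadjusted p of 0.344.

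The sign of a member's log2 fold change turned in 33 of 189 recomputed values, none of them past the threshold. Scaled to the neuron markers, which has no test, it turned for Gria1 (0.92), Gria4 (0.77), Grik1 (0.20), Grik2 (0.40) and Grik4 (0.26). It also turned for Gria1 with upper-quartile factors (0.021), DESeq2 without Bahd1-KO replicate 3 (0.0041) and the correction for GC content without it (0.0067), and for Gria2 with total counts (-0.040), the replicate block (-0.19), the ribosomal and mitochondrial RNA genes left out (-0.0022) and the correction for GC content (-0.28). It turned for Gria3 with the block (-0.074) and the correction for GC content (-0.14), both without Bahd1-KO replicate 3. With voom and quality weights Gria4 was at 0.11, Grik1 at 0.12 and Grik2 at 0.29. With DESeq2 without that library they were at 0.0053, 0.15 and 0.21, and with the block without it Grik1 was at 0.0085 and Grik2 at 0.058. With the correction for GC content without it Grik1 was at 0.13, Grik3 at 0.052 and Grik4 at 0.073. The cause was not tested. The GC corrections were chosen after seeing the data. Leaving out 1 embryo gave ranges of -0.22 to 0.0032 for Gria1, -0.60 to 0.39 for Gria2, -0.32 to 0.039 for Gria4, -0.59 to 0.15 for Grik1 and -0.66 to 0.21 for Grik2. The sign held for Gria3 (0.08 to 0.51), Grik3 (-1.07 to -0.22), Grik4 (-0.87 to -0.06) and Grik5 (-1.87 to -0.58), each with its largest difference without Bahd1-KO replicate 2 and its smallest without Bahd1-KO replicate 3.

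The log2 ratio of the AMPA sum was 0.85 and of the kainate sum -0.10 when scaled to the neuron markers, and leaving out 1 embryo gave -0.52 to 0.20 for AMPA and -1.08 to -0.15 for kainate, with the highest of both without Bahd1-KO replicate 3 and the lowest without Bahd1-KO replicate 1 for AMPA and replicate 2 for kainate. The number of neighbouring genes ordered alike in every embryo was 2 to 4 when 1 embryo was left out and 2 with the longest transcript. The median of all genes was -0.11 with total counts and 0.17 with upper-quartile factors, against 0.06 with TMM factors. The lowest count of a member in any embryo was 271.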
